A study of Mus musculus with 3 samples.

Results

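The genes described here encode the proteins that prepare, carry out and supply DNA replication, with the regulators of the passage from G1 into S phase. They are 35 listed genes, chosen by name. The probes of 33 of them carry that name in the array files (47 probes on 65 spots), among 19861 named genes in all, and the remaining members, Orc1 and Orc6, stand on the array under older symbols and are described apart. The samples were mPTECs, primary kidney cells of male mice aged 1 month. One sample each was taken straight after isolation (day 0), after 1 day and after 3 days on culture dishes, the cultured ones in medium with insulin, transferrin, selenium, hydrocortisone and 1% serum. No genotype, strain or further treatment is given, nor how many mice gave each sample. Each was labelled with Cy3 and hybridised to 1 Agilent array, so there is no error between samples, nothing was tested, and each comparison describes these arrays.

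A cell prepares its origins of replication in G1, when the origin recognition complex, Cdc6 and Cdt1 load the Mcm2 to Mcm7 helicase onto DNA, which is called licensing. At the start of S phase Cdc45 and the GINS complex turn the loaded helicase on, polymerases copy the strands behind it with the sliding clamp Pcna, and enzymes of nucleotide synthesis provide the building blocks. Many of these genes are transcribed by E2F factors once the retinoblastoma protein is inactivated, a step in which cyclin E and its kinase take part. Most cells of an adult kidney tubule are out of the cell cycle but can enter it again after injury or when placed in culture.

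The level of a gene is the processed signal of its brightest probe divided by the 75th percentile of the signals on the same array. A level compares days for 1 probe and cannot be set against the level of another probe. In intensity units that percentile was 1184 on day 0, 1509 on day 1 and 1515 on day 3. The median SD between spots of 1 probe was 0.146 in log2 units. Over all genes, different probes of 1 gene differed by a median SD of 0.34 in the log2 ratio of day 1 to day 0. It was 0.47 for day 3 to day 0 and 0.27 for day 3 to day 1. In the 10 members with over 1 probe well above background on all arrays, these were 0.30, 0.69 and 0.22. A difference was counted from 4-fold. Relative to the 75th percentile, the median of 12 reference genes stood 0.75 higher on day 1 and 0.70 higher on day 3 than on day 0 on the log2 scale, and the spike-in controls stood at -0.20 and -0.65, so scaling to either moves every ratio below by that much. The 10 proximal tubule markers had a summed level of 867 on day 0, 148 on day 1 and 15.9 on day 3, and all were well above background on every array. Markers of the loop of Henle and distal tubule summed to 381, 89.8 and 15.3, those of the collecting duct to 50.6, 12.7 and 5.98, those of endothelium to 21.3, 11.2 and 4.16, and those of podocytes to 7.97, 1.59 and 2.02. T and B cell markers summed to 1.39, 0.984 and 1.02. Macrophage markers summed to 14.2, 10.46 and 17.1, most of it the signal of Lyz2. Their log2 ratios of day 3 to day 0 were 2.34 for Cd68 (3.61 on day 1), 1.28 for Cd14, 0.15 for Lyz2, -0.04 for Csf1r, -0.23 for Adgre1 and -1.59 for Ptprc. Fibroblast and pericyte markers summed to 5.19, 4.27 and 10.8, most of the day 3 sum being the signal of Col1a2. Their log2 ratios of day 3 to day 0 were 2.83 for Col1a1, 2.01 for Col1a2, 1.61 for Col3a1, 0.10 for Pdgfra, -0.88 for Pdgfrb and -0.96 for Dcn. The part of these other cells in the results was not tested, and more cells of a type cannot be told apart from more RNA per cell.

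The promoters were searched for short motifs, none of which all of the genes held. The RefSeq table (GRCm38.p6), which gives 250 bases before to 50 bases after a start, held 30 of the 35 members in 35 windows; Mcm4, Gins1, Gins2, Pole and Ccne2 have no entry. Each window was searched on both strands for the E2F octamers TTTCCCGC, TTTCGCGC, TTTGCCGC and TTTGGCGC. They were found in 13 of 30 members and 13 of 35 member windows (37.1%), against 2.26% of all 32851 windows. The windows of 7 of 9 licensing genes held a match, those without being Mcm2 and Orc6, as did 4 of 9 of the polymerase, clamp and loader group, 1 of 2 of the joining genes (Lig1) and 1 of 2 of the chromatin genes (Uhrf1). The 9 licensing genes here include Orc1 and Orc6 but not Mcm4. No match lay in the windows of the 4 nucleotide supply genes, of Mcm10 and Cdc45, or of E2f1 and Ccne1. The E2f1 window appears to lie inside the gene, since its bases before the start read as protein-coding sequence. It therefore cannot show whether the promoter of E2f1 holds an octamer. A match is a description of letters, and its absence says only that these letters are not in the window.

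The stretches with matches below were picked, after the search, to show how octamers sit in licensing genes, Pola1, Pole2 and Uhrf1. The stretches are parts of the windows, and another octamer of Mcm3 and of Mcm7 lies outside the printed bases. Capitals mark E2F octamers and CCAAT boxes on either strand, and each stretch is written 5′ to 3′ on the strand of the gene. They lie at chr1:20820283-20820462, minus strand (Mcm3), chr8:75109339-75109398, plus strand (Mcm5), chr1:128359735-128359830, minus strand (Mcm6), chr5:138172004-138172063, minus strand (Mcm7, the second of its windows), chr11:98907996-98908055, plus strand (Cdc6), chr4:108579409-108579468, plus strand (Orc1), chrX:93632251-93632310, minus strand (Pola1), chr12:69228161-69228250, minus strand (Pole2) and chr17:56304113-56304262, plus strand (Uhrf1, the second of its windows). In Mcm5 and Mcm6 an octamer of each strand overlap by 4 bases.
Mcm3: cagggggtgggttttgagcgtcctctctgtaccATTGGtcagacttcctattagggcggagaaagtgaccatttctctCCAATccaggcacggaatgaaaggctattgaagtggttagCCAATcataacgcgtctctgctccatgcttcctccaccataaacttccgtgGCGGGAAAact
Mcm5: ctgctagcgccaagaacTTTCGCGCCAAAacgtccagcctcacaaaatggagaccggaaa
Mcm6: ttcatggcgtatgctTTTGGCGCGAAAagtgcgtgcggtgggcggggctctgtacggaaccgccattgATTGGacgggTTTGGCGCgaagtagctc
Mcm7: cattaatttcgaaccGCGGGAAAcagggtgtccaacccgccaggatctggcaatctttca
Cdc6: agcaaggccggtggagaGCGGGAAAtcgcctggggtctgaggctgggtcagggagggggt
Orc1: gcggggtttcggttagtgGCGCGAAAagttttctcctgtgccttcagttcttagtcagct
Pola1: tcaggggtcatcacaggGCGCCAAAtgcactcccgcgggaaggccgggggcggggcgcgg
Pole2: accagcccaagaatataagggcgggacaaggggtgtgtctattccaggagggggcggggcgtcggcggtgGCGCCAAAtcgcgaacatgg
Uhrf1: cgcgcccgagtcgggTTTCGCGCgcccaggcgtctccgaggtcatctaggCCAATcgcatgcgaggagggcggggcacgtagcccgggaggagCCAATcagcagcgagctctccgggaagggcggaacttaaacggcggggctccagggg

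Nucleotide supply genes, picked after their values were seen, are set beside them as windows that hold no such octamer. Windows of early and of late members occur both with and without an octamer, and a link to timing was not tested. Shown are the bases before the start of Rrm2 (chr12:24708004-24708253, plus strand), which has a CCAAT box, of Tk1 (chr11:117826015-117826264, minus strand) and of Tyms (chr5:30073626-30073875, minus strand), which have neither.
Rrm2: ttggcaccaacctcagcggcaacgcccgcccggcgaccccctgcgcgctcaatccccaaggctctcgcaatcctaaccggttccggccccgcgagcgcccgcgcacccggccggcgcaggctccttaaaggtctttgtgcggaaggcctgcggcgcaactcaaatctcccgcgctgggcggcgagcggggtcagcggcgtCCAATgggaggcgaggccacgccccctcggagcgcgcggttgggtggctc
Tk1: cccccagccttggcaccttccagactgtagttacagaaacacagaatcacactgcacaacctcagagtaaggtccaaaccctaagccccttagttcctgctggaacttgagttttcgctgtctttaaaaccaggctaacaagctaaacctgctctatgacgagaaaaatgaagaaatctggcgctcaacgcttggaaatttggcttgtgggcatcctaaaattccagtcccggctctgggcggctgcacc
Tyms: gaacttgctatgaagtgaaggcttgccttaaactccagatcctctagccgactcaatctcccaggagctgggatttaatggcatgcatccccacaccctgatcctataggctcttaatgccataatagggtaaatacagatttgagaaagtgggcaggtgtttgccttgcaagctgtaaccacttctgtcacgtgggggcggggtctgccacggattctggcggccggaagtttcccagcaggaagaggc

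For comparison, CCAAT lay in 17 of 30 members, in 15 of 17 mitosis genes with a window and in 41.1% of all genes with a window. The CHR hexamers TTTGAA and TTCGAA lay in 5 of 30 members, 12 of 17 mitosis genes and 21.7% of all such genes.

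All 33 members were higher on day 1 than on day 0 and higher again on day 3, except that scaling to the reference genes put Rfc5, Tyms and Tk1 lower on day 1 than on day 0. A gene was higher at both steps for 21.1% of all genes measured. On day 1, 17 of 33 members were at least 4-fold above day 0, against a background of 3.37% of all genes, and the median log2 ratio was 2.16, against -0.11 over all genes. On day 3, 33 of 33 were at least 4-fold above day 0 (background 5.32%), with a median of 3.47 against -0.11. Between day 1 and day 3, 9 of 33 were at least 4-fold higher (background 1.62%), with a median of 1.62 against -0.04. No member was at least 4-fold lower in any comparison, where the background was 5.15% for day 1 to day 0, 7.95% for day 3 to day 0 and 1.31% for day 3 to day 1. Counted from 2-fold, 29 members were higher on day 1 (background 13.5%), 33 on day 3 (16.5%) and 24 between day 1 and day 3 (6.96%), 20 at both steps (1.43%), and none was 2-fold lower (15.3%, 21.7% and 8.22%). The second step spans more days than the first. Fewer members were at least 4-fold higher on day 3 than on day 0 with reference gene scaling (28), the mean of probes (29), quantile normalization (31) and normexp background correction or no trend correction (32 each). Scaling to the reference genes left 8 members at least 4-fold higher on day 1, and scaling to the spike-ins gave 18 between day 1 and day 3. The members closest to the threshold on day 1 were Pold1 at 3.49-fold, Pcna at 3.68-fold and Gins2 at 3.76-fold below it and Mcm4 at 4.48-fold above it.

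**Figure D1:**
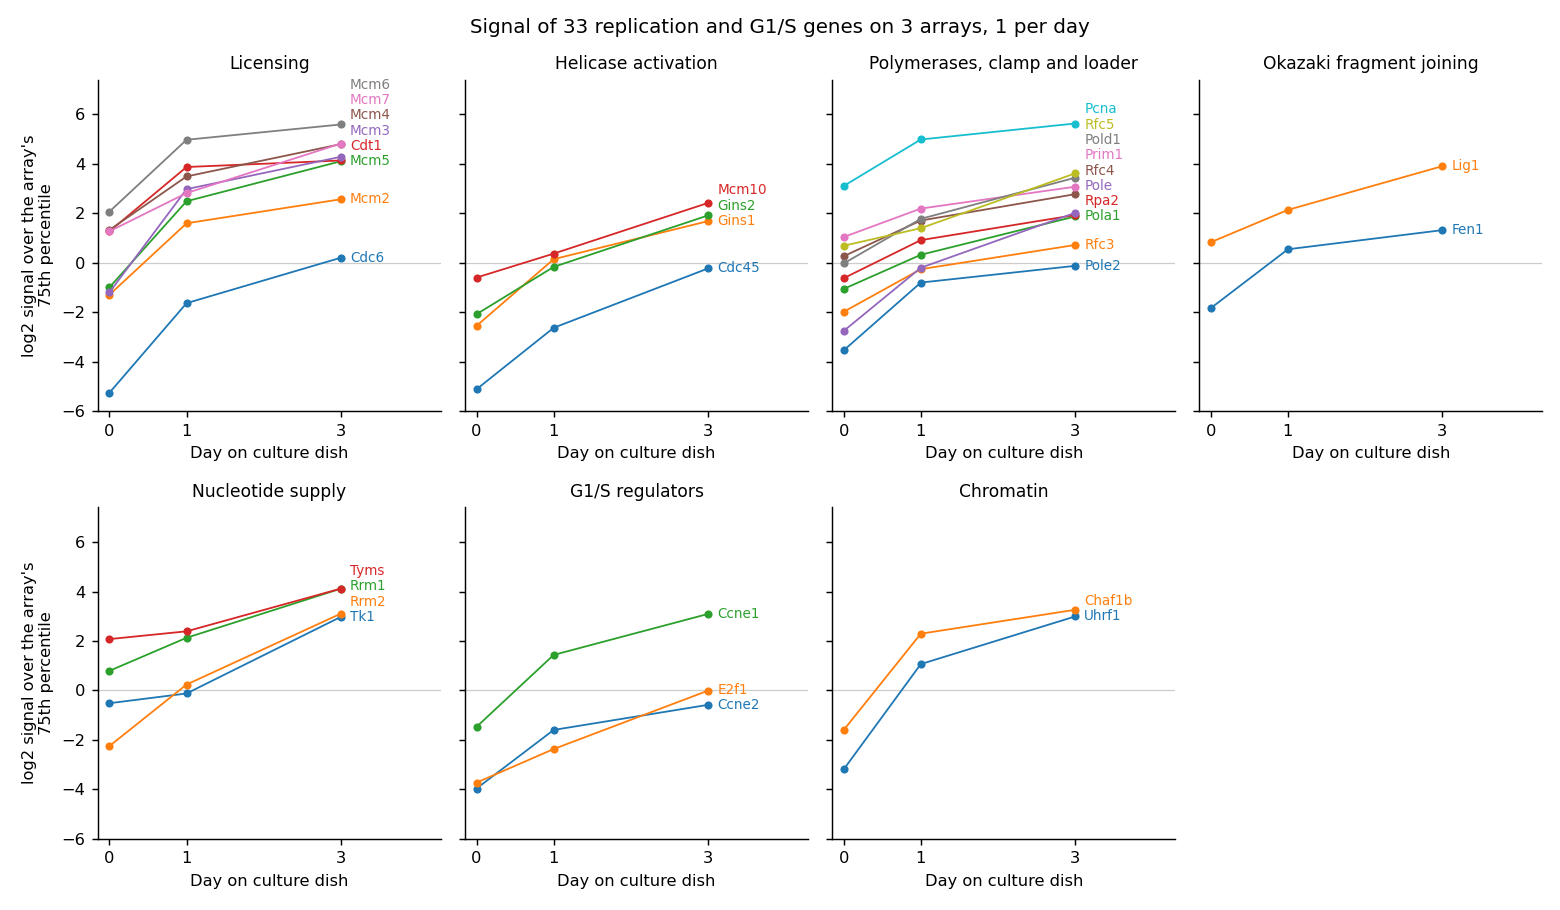
Log2 level (signal over the array's 75th percentile) of 33 genes on the day 0, day 1 and day 3 arrays, 1 line per gene and 1 panel per role, with 1 array per day and no error bars. Each line is higher on day 1 than on day 0 and higher again on day 3, with the larger step before day 1 for 7 of 8 licensing genes and after it for Tk1, Tyms and Rfc5, which lie lower on day 1 than on day 0 when arrays are scaled to the reference genes; heights of different genes cannot be compared.

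Of the 8 licensing genes found by name, 7 were at least 4-fold higher on day 1, and the median log2 ratio was 2.90, followed by a median of 1.31 from day 1 to day 3. Mcm3, a helicase subunit with its probe at chr1:20793119-20793178 (mm9), had levels of 0.436, 7.86 and 19.5, so it was 18.0-fold higher on day 1 and 44.6-fold higher on day 3 than on day 0. Its other probe gave log2 ratios of 3.78 and 4.74, beside 4.17 and 5.48 for the brighter one. Mcm5 had levels of 0.501, 5.61 and 17.2, and Mcm2 had levels of 0.407, 3.02 and 5.92. Both are subunits of the same ring, and they were 11.2-fold and 7.42-fold higher on day 1.

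Mcm6 stood at 4.19, 31.4 and 48.2, with 82.4% of its log2 difference between day 3 and day 0 present on day 1. Mcm4 stood at 2.50, 11.2 and 27.8, or 4.48-fold and 11.1-fold above day 0. Its other probe, designed on a cDNA clone, was never well above background, and the mean of both gave log2 ratios of 1.04 and 1.35. The brighter Mcm3 probe and the Rrm2 probe, which both rose, were also designed on cDNA clones. Mcm7 was the subunit with the smallest first step: its levels of 2.41, 7.04 and 28.2 were 2.92-fold higher on day 1 and 11.7-fold on day 3. The log2 ratio of day 1 to day 0 differed by 2.63 between Mcm3 and Mcm7, where the spread between probes of a gene gives such a difference an SD of 0.48. Across the 6 subunits the ratios had an SD of 0.93 for day 1 to day 0 and 0.48 for day 3 to day 1.

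Cdc6, the ATPase that helps load the helicase, stood at 0.0261, 0.322 and 1.15 and was well above background on all 3 arrays. It was 12.3-fold higher on day 1 and 44.1-fold higher on day 3 than on day 0. Its other probe was not well above background on day 0. Cdt1, which brings the helicase to the origin, had levels of 2.41, 14.6 and 17.6. This was a 6.07-fold difference by day 1 and only 1.20-fold from day 1 to day 3, so 90.8% of its log2 difference was present on day 1, the highest share of the 33 members. The remaining licensing genes were found on the array only through their transcript accession, under the names Orc1l and Orc6l. Orc1, the largest origin recognition subunit, stood at 0.0696, 0.218 and 0.622, and Orc6 at 2.28, 8.54 and 14.1. They were 3.13-fold and 3.75-fold higher on day 1 and 8.94-fold and 6.20-fold higher on day 3, and neither enters the counts above.

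The genes that turn the helicase on had median log2 ratios of 2.20 from day 0 to day 1 and 2.06 from day 1 to day 3. With normexp background correction the first of these was 1.48. The larger step lay before day 1 in Gins1 and after it in Mcm10. The log2 steps of Cdc45 (2.49 and 2.40) and of Gins2 (1.91 and 2.08) differed by less than the spread between probes of a gene. Cdc45, part of the active helicase, had levels of 0.0288, 0.161 and 0.851, a 5.60-fold first step and a 5.27-fold second. With normexp background correction Cdc45 no longer reached 4-fold above day 0 on day 1. Gins1 and Gins2 encode subunits of the GINS complex. Gins1 stood at 0.171, 1.105 and 3.21 and its other probe gave log2 ratios of 2.94 and 4.58 over day 0, beside 2.70 and 4.23. Gins2 stood at 0.236, 0.890 and 3.76, 3.76-fold and then 4.23-fold higher. Mcm10, which acts in starting replication, was 1.96-fold higher on day 1 and 8.09-fold on day 3, with levels of 0.660, 1.29 and 5.34. Of these 4 genes, 3 were at least 4-fold higher on day 3 than on day 1.

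Of the 10 genes of the polymerases, clamp and loader, 2 were at least 4-fold higher on day 1 and all on day 3, with median log2 ratios of 1.63 and 2.81. These were Pole and Pole2, the catalytic and the second subunit of the leading strand polymerase. Pole had levels of 0.148, 0.869 and 4.04 and was 27.4-fold higher on day 3 than on day 0. Its other probe, from a cDNA clone and well above background on every array, gave log2 ratios of -0.44 and -1.48, and the mean of both was 1.06 and 1.65. Pole2 had levels of 0.0857, 0.573 and 0.916 and took 80.2% of its log2 difference by day 1. Pold1, the catalytic subunit of the lagging strand polymerase, stood at 0.979, 3.42 and 10.8, and its probes gave log2 ratios of 3.47 and 3.49 for day 3 to day 0. On day 1 they lay on either side of the threshold, at 3.49-fold and 4.07-fold.

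Pola1 and Prim1 belong to the polymerase that begins each new strand. Pola1 had levels of 0.480, 1.25 and 3.65, and Prim1, whose ratio of day 3 to day 0 was the lowest of the members at 4.10-fold, beside 4.12-fold for Tyms, had 2.05, 4.56 and 8.42. Pcna was measured on 10 spots, of which 8 or 9 were kept, and stood at 8.59, 31.6 and 49.5. The SD between its spots was 0.173, 0.154 and 0.056 on the log2 scale, against log2 ratios of 1.88 and 2.53. The clamp loader genes Rfc3, Rfc4 and Rfc5 were 3.30-fold, 2.72-fold and 1.64-fold higher on day 1 and 6.51-fold, 5.69-fold and 7.60-fold on day 3. Rfc5, at 1.61, 2.63 and 12.2, took 24.3% of its difference by day 1, the lowest share of this group, and with reference gene scaling its log2 ratio of day 1 to day 0 was -0.04. Rpa2, a subunit of the protein that coats single strands, stood at 0.648, 1.88 and 3.80, and its other probe gave 1.23 and 1.97 in place of 1.54 and 2.55.

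Fen1 and Lig1 finish the lagging strand, the first by trimming the ends of Okazaki fragments and the other by sealing them. Fen1 had levels of 0.280, 1.46 and 2.49, with 75.5% of its difference by day 1. Lig1 had levels of 1.78, 4.40 and 14.97, with 42.5%. They reached close values over day 0 on day 3, 8.90-fold and 8.42-fold.

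The nucleotide supply genes had the smallest median first step and the largest median second step of the 7 groups, except that with the mean of probes the second step was 1.95, below 2.06 for helicase activation. Their median log2 ratio was 0.87 on day 1 and 3.41 on day 3 against day 0, and 2.43 between day 1 and day 3. All 4 were higher on day 1 by this scaling, but with reference gene scaling Tk1 and Tyms had log2 ratios of -0.36 and -0.44. Tk1, the thymidine kinase of the salvage pathway, stood at 0.699, 0.918 and 7.86. It was 1.31-fold higher on day 1 and 8.56-fold higher on day 3 than on day 1, and 11.3% of its difference was present on day 1. Rrm1 and Rrm2 are the large and the small subunit of ribonucleotide reductase. Rrm2 had levels of 0.210, 1.18 and 8.61, 5.61-fold higher on day 1 and 40.9-fold on day 3. Rrm1 had levels of 1.73, 4.37 and 17.3, 2.53-fold and 10.01-fold higher than on day 0. The other Rrm1 probe, from a cDNA clone, was never well above background, and the mean of both gave log2 ratios of 0.60 and 1.38.

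Tyms, thymidylate synthase, which makes thymidine monophosphate, stood at 4.22, 5.24 and 17.4, 1.24-fold higher on day 1 and 4.12-fold on day 3. A pseudogene, Tyms-ps, has a probe of its own on the array that shares sequence with those of Tyms, so the values of the pair are uncertain. The brightest Tyms probe and the next overlap by 40 bases, in capitals, and differ at C17A, counted from 1 at the 5′ end of the first. The pseudogene's probe shares runs of 22 and 21 bases with them, in capitals in its line.
Tyms, brightest probe: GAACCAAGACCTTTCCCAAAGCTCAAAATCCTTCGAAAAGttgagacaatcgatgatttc
Tyms, overlapping probe: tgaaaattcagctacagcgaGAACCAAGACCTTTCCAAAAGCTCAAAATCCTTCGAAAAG
Tyms-ps: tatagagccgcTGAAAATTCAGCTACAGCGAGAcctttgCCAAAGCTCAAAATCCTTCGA
The overlapping probe gave log2 ratios of 0.30 and 2.09, close to 0.31 and 2.04, and Tyms-ps gave 0.38 and 1.47. The remaining Tyms probe, designed on genomic sequence, was 0.27 lower on day 1 and 0.69 lower on day 3.

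E2f1, a transcription factor of the G1/S genes, stood at 0.0755, 0.193 and 0.993, and 36.5% of its difference was present on day 1. A dimmer probe of E2f1, on 10 spots with SDs of 0.103, 0.078 and 0.067, gave log2 ratios of 0.71 and 2.18 in place of 1.36 and 3.72. Ccne1 and Ccne2 encode cyclin E, the partner of Cdk2 at the start of S phase. Ccne1 had levels of 0.360, 2.71 and 8.52, 7.51-fold and 23.7-fold above day 0, and Ccne2 had 0.0640, 0.330 and 0.667, 5.17-fold and 10.4-fold. The probes of each disagreed on the size: the dimmer Ccne1 probe gave log2 ratios of 0.73 and 1.96 and the dimmer Ccne2 probe 3.31 and 4.61.

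The chromatin genes had the largest median log2 ratios, 4.08 on day 1 and 5.52 on day 3 against day 0. Uhrf1, which guides maintenance methylation to newly copied DNA, stood at 0.109, 2.09 and 7.94. It was 19.2-fold higher on day 1 and 72.8-fold on day 3, the highest of the members in both, although Mcm3 lay within the spread between probes of it on day 1, and its other probe gave log2 ratios of 4.49 and 6.14, beside 4.26 and 6.19. Chaf1b, a subunit of the factor that places histones on new DNA, stood at 0.329, 4.90 and 9.58, and was 14.9-fold and 29.1-fold higher than on day 0.

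**Figure D2:**
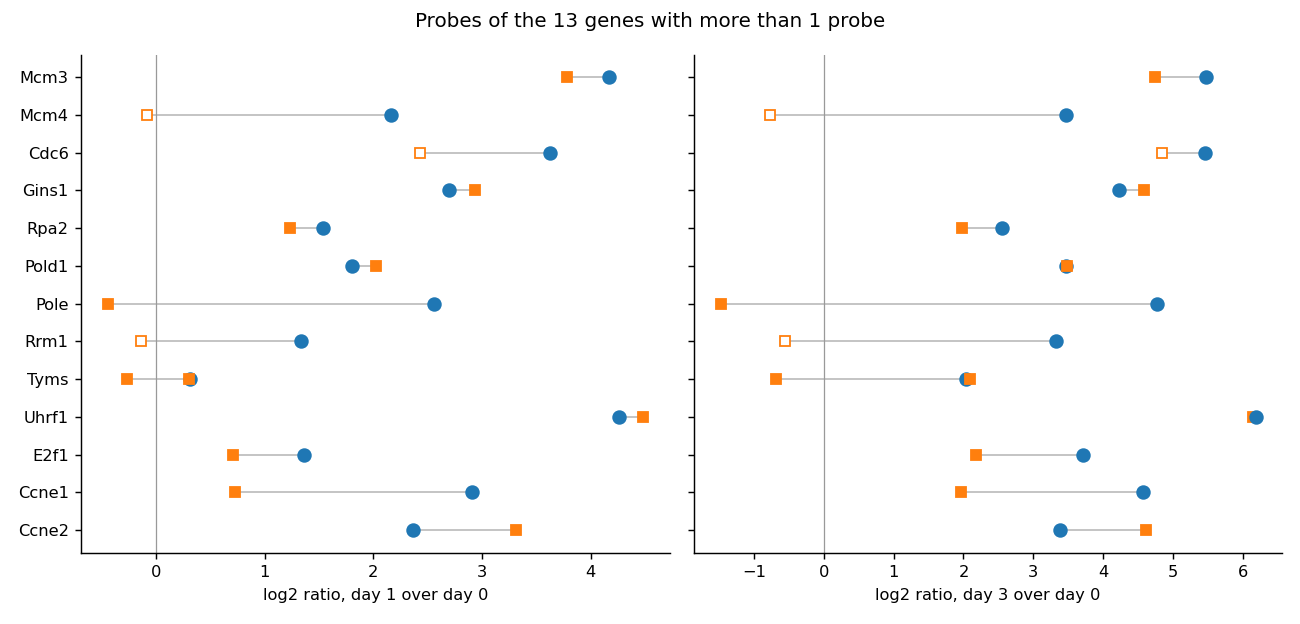
Log2 ratios of day 1 to day 0 (left) and day 3 to day 0 (right) for each probe of the 13 members with more than 1 probe; blue circles are the brightest probe, orange squares the others, and open symbols were not well above background on all 3 arrays. The brightest probes lie above 0, while other probes of Mcm4, Pole, Rrm1 and Tyms lie below it.

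The day on which a member was first at least 4-fold above day 0 was day 1 for 17 members and day 3 for 16. It was day 1 for 7 of 8 licensing genes, 2 of 4 helicase activation genes, 2 of 10 polymerase, clamp and loader genes, 1 of 2 joining genes, 1 of 4 nucleotide supply genes, 2 of 3 regulators and 2 of 2 chromatin genes. For Orc1 and Orc6, licensing genes outside these counts, it was day 3. Among all genes, 2.57% were at least 4-fold above day 0 on both days. The share of the day 0 to day 3 log2 difference that was present on day 1 had a median of 60.3% over the members, 71.6% over licensing genes, 57.1% over the polymerase group, 49.4% over helicase activation and 27.8% over nucleotide supply. Over all genes at least 4-fold higher on day 3 the median was 68.1%, with quartiles of 40.1% and 92.6%, so the licensing median was close to that of such genes and that of all members below it. It was over 50% in 22 of 33 members, beside 68.2% of all genes at least 4-fold higher on day 3, and in 0 of 4 nucleotide supply genes. Between probes of a gene this share had a median SD of 5.63 percentage points. The order of licensing above polymerase above nucleotide supply held under 10 alternatives. Their medians ran from 64.8% to 76.1% for licensing, 40.3% to 59.4% for the polymerase group and 4.71% to 32.4% for nucleotide supply. Keeping outliers and no filter left these medians unchanged, and the authors' value table holds the same ratio, so these alternatives add no check.

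**Figure D3:**
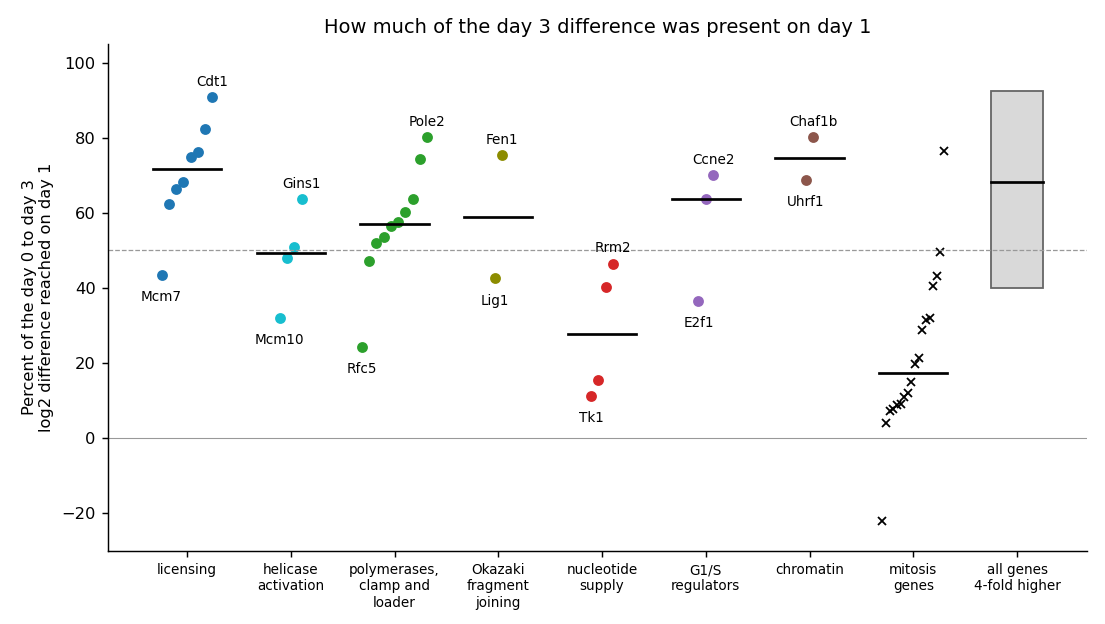
Percent of the day 0 to day 3 log2 difference reached on day 1, per gene and by role, with black bars at the medians; crosses are the mitosis genes at least 4-fold higher on day 3, and the box spans the middle quartiles of all genes at least 4-fold higher on day 3. Licensing genes have a median of 71.6% and nucleotide supply genes 27.8%, where Tk1 and Tyms lie lower on day 1 than on day 0 with reference gene scaling, and the mitosis genes have a median of 17.3%.

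**Figure D4:**
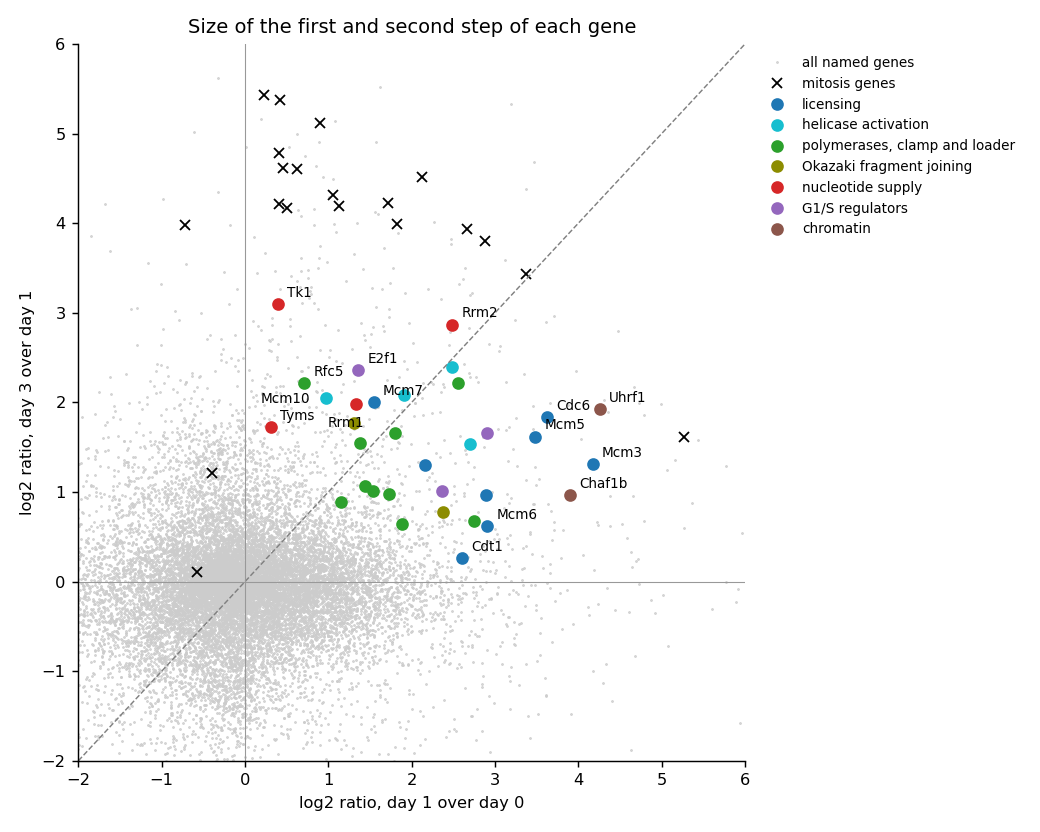
Log2 ratio of day 1 to day 0 against that of day 3 to day 1 for all named genes (grey), 33 members coloured by role and mitosis genes (crosses), within -2 to 6 on each axis; the dashed line marks equal steps. The members spread on both sides of the line, 22 with the larger step before day 1 and 11 after it, and most mitosis genes lie above the line.

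The other genes of the pathway, 62 genes listed by role and all on the array, had smaller median ratios. By their brightest probes, single genes among them exceeded every member. On day 1, 11 exceeded day 0 at least 4-fold and 1 lay that far below it (median log2 ratio 1.03), and on day 3, 26 and 1 (median 1.77). Between day 1 and day 3, 7 were at least 4-fold higher and 0 lower (median 0.70). Dtl, part of a ubiquitin ligase that removes Cdt1, had the highest ratio to day 0 on both days, 33.4-fold and 79.1-fold by its brightest probe. The mean of its 3 probes gave log2 ratios of 2.85 and 4.34. With the mean of probes Dtl was not the highest, since Dscc1 had 3.16 on day 1 and Chtf18 had 5.90 on day 3. Rbl2, a pocket protein of resting cells, had the lowest, 4.21-fold lower on day 1 and 6.73-fold lower on day 3. The cyclin gene Ccna2 had the highest ratio of day 3 to day 1, 19.6-fold, and Orc5, an origin recognition subunit, the lowest, -0.68 in log2 ratio, level with Rbl2 at -0.68, and with the mean of probes Pole4 was lowest at -0.55. Genes of mitosis, used for comparison, differed mainly after day 1: of 20, 5 were at least 4-fold higher on day 1 than on day 0 and 17 on day 3 than on day 1, and the 18 that were at least 4-fold higher on day 3 than on day 0 had a median share of 17.3% present on day 1.

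**Figure D5:**
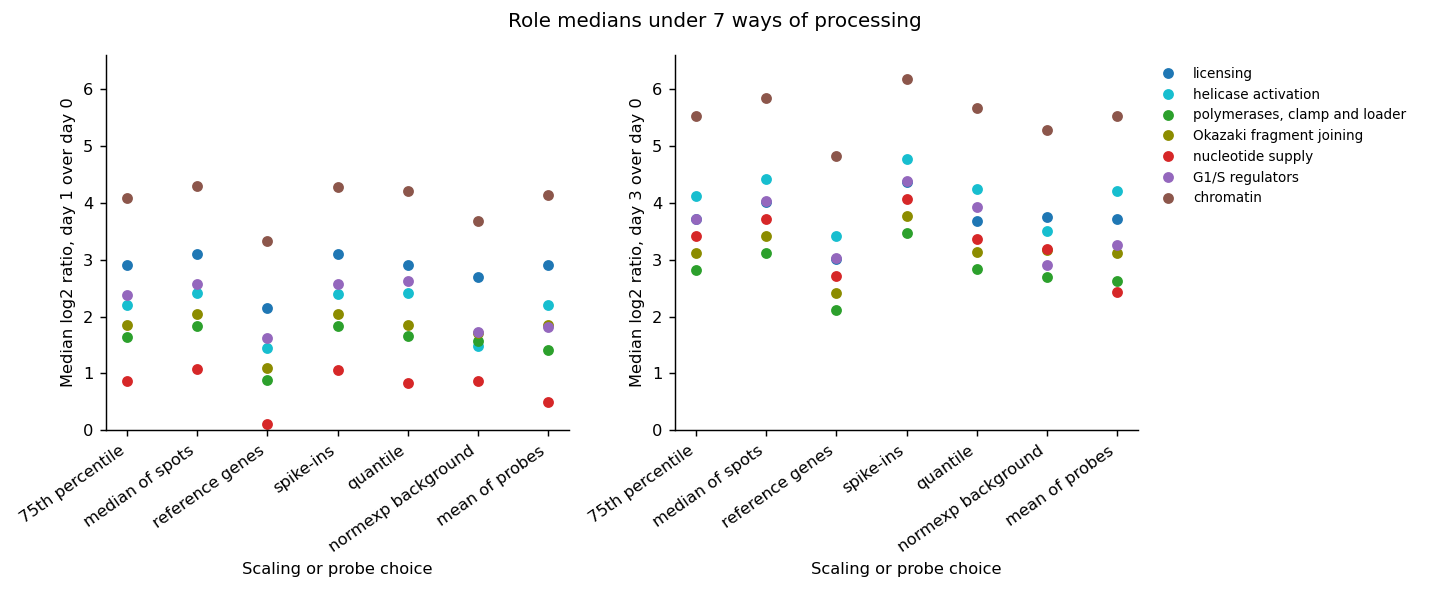
Median log2 ratio of each role group, day 1 over day 0 (left) and day 3 over day 0 (right), under the 75th percentile and 6 alternatives of scaling, background or probe choice. Nucleotide supply is lowest on day 1 under each, at 0.11 with reference gene scaling, where Tk1 and Tyms are lower on day 1 than on day 0, and on day 3 its median lies above that of the polymerase group except with the mean of probes.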

How the data were processed

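RNA of 3 mPTEC samples, 1 per day, was measured on 1-colour Agilent arrays. Per the labels' protocols, total RNA was extracted with TRIzol, amplified and labelled with Cy3. Each deposited scanner file holds intensity values for every spot: a processed signal, from which background was subtracted and which was not normalized between arrays, and the mean and background signals. Its flags for outlier, saturated and well-above-background spots, named other here, are 0 or 1, per the file headers. The files were made with Feature Extraction 10.5.1.1, per the file headers, while the submitters' processing notes name 9.1. A multiplicative trend correction was applied on the day 0 and day 1 arrays only. The authors also deposited a value table in which each value is a ratio, the signal over the 75th percentile of its array; all 43379 values per array lay within 0.001 of that ratio.

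Signals were divided by the 75th percentile of non-control spots and put on the log2 scale. Outlier spots were left out (94, 102 and 85 on the 3 arrays), and no spot was saturated. A gene is shown by the probe with the highest mean. Members were matched by the array's gene name, other probes by accession, symbol or synonym in the RefSeq table. Genes well above background on at least 1 array of a comparison were counted (18909, 19104 and 19004). Having 1 array for each day, the design allows no test, and its number of arrays limits precision. Python 3.11.15, pandas 2.3.3, R 4.3.3 and limma 3.58.1 were used, and the counting was tested on simulated data. The members, roles, lists and the 4-fold rule were chosen with earlier results of these data known; all 35 members are named, and other genes are named only as the highest and lowest of a list, except single markers of other cells, the subunits and Tyms-ps, chosen after their values were seen. So were the promoters printed: a rule by largest and smallest ratio was not kept to. Alternatives were median, reference gene, spike-in and quantile scaling, normexp background (offset 50), the mean of probes, outliers kept, no filter, the authors' value table and a 2-fold threshold. A further 2 were chosen after seeing the data: no trend correction, and adding Orc1 and Orc6.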

Additional observations from a re-analysis of the deposited data

How the results depend on the processing

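No paired analysis was possible because each day has 1 sample and the days share only 1 replicate number. Of 80 values of the member counts, medians and shares under alternatives, 68 moved little. None of the 80 reversed direction, but counts cannot do so, and the median ratios were larger than the shift of either constant scaling. Among single genes, Rfc5, Tyms and Tk1 did reverse on day 1 with reference gene scaling. Moving little meant by less than the spread between probes of a gene or, for counts, staying within 1.5 times. Keeping outliers, no filter and the authors' value table left role medians unchanged or nearly so, so part of the 68 was fixed in advance. Scaling to the reference genes gave 8 members at least 4-fold higher on day 1, median log2 ratios to day 0 of 1.41 on day 1 and 2.77 on day 3, and a median share present on day 1 of 49.7%. Scaling to the spike-ins gave a median of 4.13 for day 3 to day 0, 18 members at least 4-fold higher and a median of 2.07 for day 3 to day 1, and a share of 54.3%. Both differ from the 75th percentile by a constant per array. Normexp background correction gave a median of 1.80 for day 1 to day 0. The mean of probes, which adds the probes never well above background, gave a median of 1.16 for day 3 to day 1. A 2-fold threshold counted 29 members on day 1 and 24 between day 1 and day 3. Of the 1221 values of single genes and role groups, 217 moved. With reference gene scaling 14 members changed the first day at least 4-fold above day 0, and 5 of the 33 then reached it on neither day. Without the trend correction 32 members, all but Tyms, were at least 4-fold higher on day 3 than on day 0. With 1 array per day, the spread between samples is unknown.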

Other observations

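In several complexes the subunits off the list had smaller ratios than those on it, but not in DNA polymerase alpha-primase. These subunits were chosen after their values were seen, and the member list with earlier results known. The split therefore describes the lists and shows no property of the complexes. In the origin recognition complex, the log2 ratio of day 3 to day 0 was 3.16 for Orc1 and 2.63 for Orc6. It was 1.19 for Orc2, 0.51 for Orc3 and 1.02 for Orc4, and -0.07 for Orc5, where reference gene scaling, which takes 0.70 from each, and the mean of probes put Orc3 below 0, and median or spike-in scaling puts Orc5 above 0. In replication factor C it was 1.11 for Rfc1, which is the largest subunit, and 0.97 for Rfc2, against 2.70, 2.51 and 2.93 for Rfc3, Rfc4 and Rfc5. In replication protein A it was 1.85 for Rpa1 and 1.35 for Rpa3, against 2.55 for Rpa2. In the GINS complex it was 2.01 for Gins3 and 1.83 for Gins4, against 4.23 and 3.99 for Gins1 and Gins2. In DNA polymerase epsilon the histone-fold subunits Pole3 and Pole4 had 1.62 and 1.42, and Pole4 had a log2 ratio of -0.56 from day 1 to day 3. In alpha-primase the log2 ratio of day 3 to day 0 was 3.00 for Pola2 (0.72 with the mean of its 3 probes) and 2.81 for Prim2, against 2.93 for Pola1 and 2.04 for Prim1. In DNA polymerase delta it was 2.42 for Pold2, 0.93 for Pold3 (1.78 with the mean of its 3 probes) and 1.94 for Pold4, against 3.47 for Pold1. Chaf1a, the partner of Chaf1b, had 2.85 on day 1 and 4.47 on day 3, beside 3.90 and 4.86.

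Members whose promoter window held an E2F octamer had a median log2 ratio of day 1 to day 0 of 2.67 (12 genes, from 1.31 to 4.26), and those whose window held none had 1.49 (16 genes, from 0.31 to 3.90). The 16 include E2f1, whose window appears to lie inside the gene. Orc1, with an octamer, and Orc6, without one, enter neither group, and their ratios of day 1 to day 0 were 1.64 and 1.91. For day 3 to day 0 the medians lay closer together, at 3.496 with an octamer and 3.238 without. The day 1 ranges overlap, the split follows the roles above, and no test was made.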
